A study of Mus musculus with 2 samples.

Results

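The blood and immune miRNAs described here are 8 miRNA genes known from blood cells: Mir142b, Mir223, Mir451a, Mir144, Mir146 (also called Mir146a), Mir146b, Mir155 and Mir150. They were selected by name, from the Ensembl identifiers of the gene rows matched to GENCODE, and make up 8 of the 1973 genes in the count tables. Small RNA under the size limit given in the labels was sequenced from the intestine of mouse embryos of the strain B6NCrl, taken at embryonic day 16.5. Each library came from tissue pooled over male and female embryos, all healthy and with no treatment, and the labels count 41 embryos in the pool of replicate 2 and give no number for replicate 1. The libraries are biological replicates of 1 group, so no condition was compared, and n is 2 wherever a mean ± SD is given. A level is the count on the strand of the gene divided by the total of all gene rows (4261976 in replicate 1 and 5680764 in replicate 2), as counts per 1000000 (CPM).

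A miRNA is cut from a hairpin transcript and guides Argonaute proteins to messenger RNAs, which it recognises mainly through its seed, bases 2 to 8. Blood cells carry several miRNAs that other cells largely lack. In the fetus, red cells made in yolk sac and liver fill the vessels of every organ, and macrophages settle in the gut wall before lymphocytes do. A bulk tissue library holds all of these, and in it fewer cells of a type cannot be told apart from less RNA per cell.

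The mature sequences of these genes come first because strand, and bases shared between genes, bear on how the counts can be read. All 8 symbols had a mature entry in RefSeq (GRCm38.p6), 13 sequences in all. For Mir150 only miR-150-3p was among them, so the seed of its 5p arm was not compared. Written 5′ to 3′ with the seed in capitals, the sequences the results turn on were as follows.
miR-142a-5p: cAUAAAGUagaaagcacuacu
miR-142a-3p: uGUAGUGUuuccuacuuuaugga
miR-142b: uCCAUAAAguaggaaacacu
miR-223-5p: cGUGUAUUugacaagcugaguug
miR-223-3p: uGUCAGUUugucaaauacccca
miR-451a: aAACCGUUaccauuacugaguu
miR-144-5p: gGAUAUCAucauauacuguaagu
miR-144-3p: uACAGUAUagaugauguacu
miR-146a-5p: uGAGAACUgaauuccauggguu
miR-146b-5p: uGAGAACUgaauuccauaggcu
miR-155-5p: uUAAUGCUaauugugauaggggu
miR-150-3p: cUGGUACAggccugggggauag
Only miR-146a-5p and miR-146b-5p had a seed in common, and no gene outside the 8 and the loci opposite them shared any of these seeds among the 1738 mature entries of RefSeq. That pair is alike over its first 17 bases and differs by G18A and U21C, written as the miR-146a-5p base, its position from the 5′ end and the miR-146b-5p base. Apart from this pair, the longest stretch that a mature sequence shared with a hairpin at another locus was 13 bases (miR-142a-5p). The tables count reads per gene, so which arm of a hairpin was sequenced could not be read from them.

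Across the list, 7 of the 8 genes were above the limit of 3 counts in both libraries, and their levels spanned from 20.9 to 1400 CPM. The limit corresponds to 0.704 CPM in replicate 1 and 0.528 CPM in replicate 2. From high to low the order was the Mir142b row (read on its opposite strand), Mir223, Mir451a, Mir144, Mir146, Mir155, Mir150 and Mir146b, and it was the same in both libraries. Among these 8 genes the row of Mir142b held 48.4% ± 4.74 of the counts, Mir223 26.9% ± 1.03, Mir451a 13.2% ± 2.60 and Mir144 5.02% ± 0.541.

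**Figure D1:**
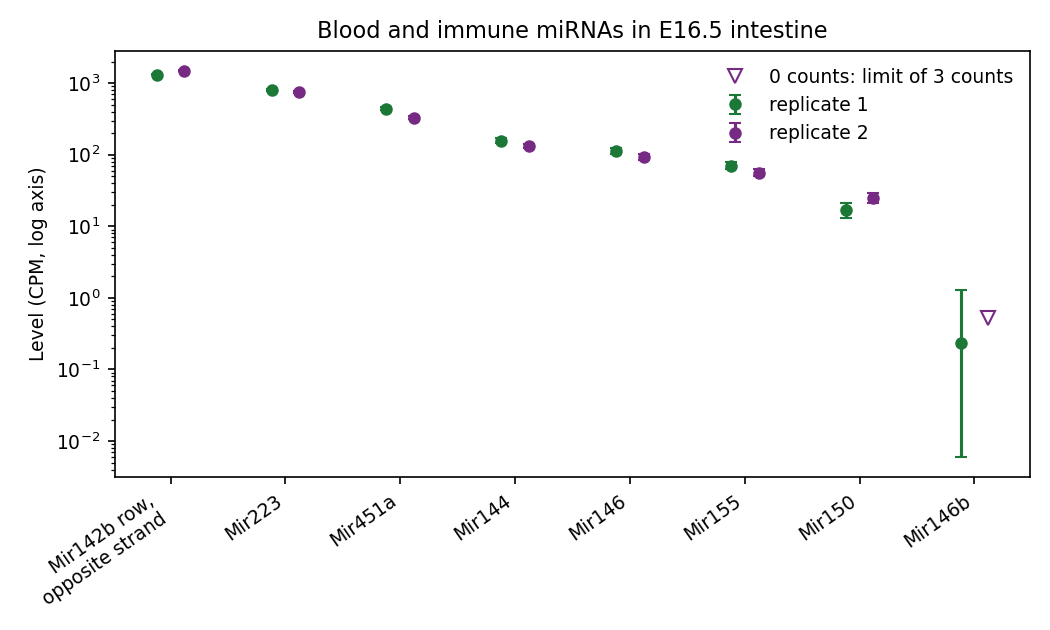
Level of each blood and immune miRNA gene in replicates 1 and 2 (CPM, log axis). Points are single libraries, bars are exact Clopper-Pearson 95% intervals for counting error, and the open triangle marks the limit of 3 counts for a gene with 0 counts. The levels fall from about 1400 CPM at the Mir142b row to at most 1 count at Mir146b.

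The highest counts of the list were read at the locus of Mir142, a miRNA found in all white blood cell lineages and needed for their normal development. The tables have no row for Mir142 itself. They have one for Mir142b, whose hairpin lies on the other strand of the same stretch of chromosome 11 (87756841 to 87756955, minus strand), inside an intron of the noncoding gene Mir142hg, which runs on the plus strand. On its own strand Mir142b had 0 counts in both libraries. On the opposite strand its row held 5602 counts in replicate 1 and 8434 in replicate 2, 1867-fold and 2811-fold the limit of 3 counts set for the empty strand. This is 1314 and 1485 CPM, or 1400 ± 120 CPM, which ranks 85 among all genes in replicate 1. All reads of this row therefore lay on the strand of Mir142, and none on that of miR-142b.

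The strands can be followed in the sequence. The Mir142 hairpin is shown with miR-142a-3p in capitals, at chr11:87756864-87756927 (mm10, plus strand).
Mir142 hairpin: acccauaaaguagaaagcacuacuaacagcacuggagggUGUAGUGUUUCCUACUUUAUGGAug
These 64 bases are the reverse complement of bases 29 to 92 of the 115-base Mir142b hairpin. The mature miR-142b covers 20 bases opposite miR-142a-3p and none opposite miR-142a-5p.

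Mir223, a miRNA of neutrophils, monocytes and macrophages that restrains granulocyte production, stood second. It lies on chromosome X (96242817 to 96242926, plus strand), in an exon of the noncoding gene F630028O10Rik. Replicate 1 held 3427 counts and replicate 2 held 4255, which is 804 CPM (exact Clopper-Pearson 95% interval 777 to 831) and 749 CPM (727 to 772), or 777 ± 38.9 CPM. No read of this row lay on the opposite strand. The Mir142b row was 1.81 ± 0.246 times as high as Mir223, 1.63 times in replicate 1 and 1.98 times in replicate 2.

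The red cell lineage was represented by Mir451a and Mir144, which are made from 1 primary transcript under the erythroid factor GATA1. Their hairpins lie 99 bases apart on the plus strand of chromosome 11, Mir144 at 78073005 to 78073070 and Mir451a at 78073170 to 78073241. Mir451a had 1873 counts in replicate 1 and 1857 in replicate 2, or 439 CPM (interval 420 to 460) and 327 CPM (312 to 342). Mir144 had 671 and 755 counts, or 157 CPM (146 to 170) and 133 CPM (124 to 143). For both genes the CPM in replicate 1 was the higher, and for both the counting intervals of the libraries did not overlap. The test between the replicates given below scales the libraries otherwise. Mir451a passed it and Mir144 did not (log2 ratio -0.13, adjusted p of the exact test 0.164). Mir451a stood 2.79 times above Mir144 in replicate 1 (interval of the ratio 2.55 to 3.05) and 2.46 times in replicate 2 (2.26 to 2.68), and these intervals do overlap.

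The members of this pair are matured differently. Most miRNA hairpins, Mir144 among them, are cut by Dicer, whereas the Mir451a hairpin is not and is sliced by Argonaute 2. The Mir451a hairpin is shown with its mature miRNA in capitals, at chr11:78073170-78073241 (mm10, plus strand).
Mir451a hairpin: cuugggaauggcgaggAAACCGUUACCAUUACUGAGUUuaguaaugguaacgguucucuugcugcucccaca
In the fold computed for this 72-base hairpin, the mature miRNA took up bases 17 to 38, of which 17 were paired and 4 formed the terminal loop. None of the other mature sequences whose hairpin was in the RefSeq table reached into its terminal loop. Mir451b, annotated on the other strand of the same 72 bases, has no row, and the Mir451a row had 0 counts on that strand in both libraries.

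**Figure D2:**
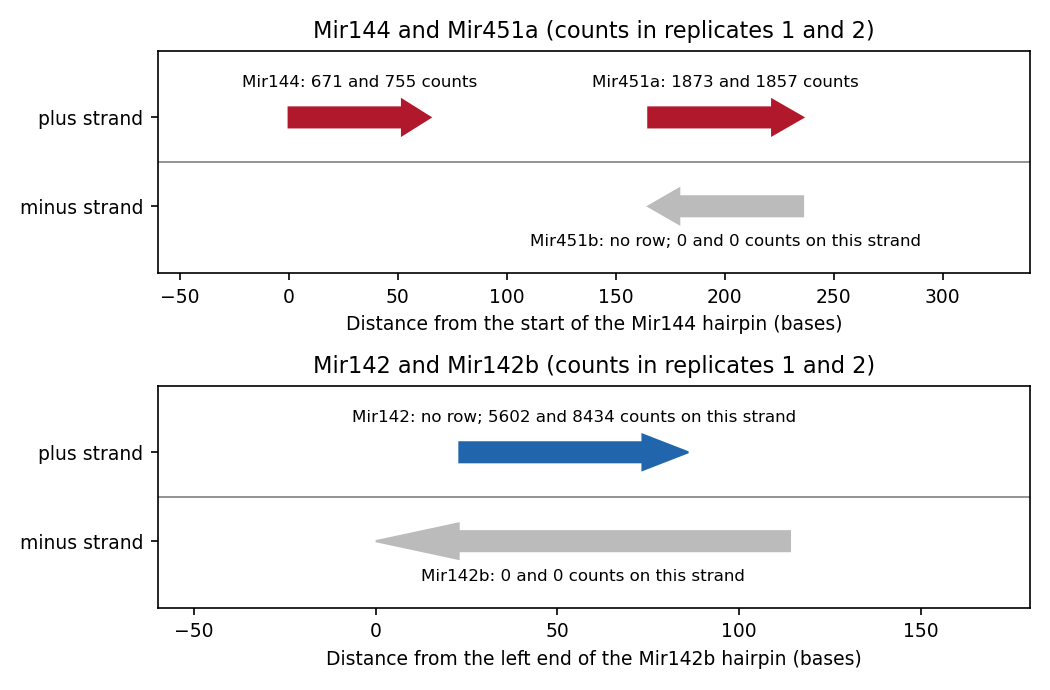
Maps of the Mir144 and Mir451a locus (top) and of the Mir142 and Mir142b locus (bottom), to scale, in bases from the left end of the first hairpin. Arrows point along the strand of each hairpin, and the labels give the counts in replicates 1 and 2 on that strand. In both loci only the plus strand carried reads, 5602 and 8434 of them at Mir142.

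Below these came Mir146 and Mir155, which macrophages and lymphocytes induce when NF-kB is activated: miR-146a damps the signal by repressing Traf6 and Irak1, and miR-155 promotes inflammatory and B cell responses. Mir146 (chromosome 11, 43374397 to 43374461, minus strand) had 478 and 525 counts, which is 112 CPM (102 to 123) in replicate 1 and 92.4 CPM (84.7 to 101) in replicate 2. Mir155 (chromosome 16, 84714140 to 84714204, plus strand, in an exon of Mir155hg) had 299 and 317 counts, or 70.2 CPM (62.4 to 78.6) and 55.8 CPM (49.8 to 62.3). In CPM both genes were higher in replicate 1, though neither passed the test between the replicates given below. Mir146 was 1.63 ± 0.0407 times as abundant as Mir155, a ratio that was nearly equal in the libraries (1.60 and 1.66).

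Mir146b, which carries the same seed as Mir146 and lies in an intron of Mfsd13a (chromosome 19, 46342762 to 46342870, plus strand), was close to absent from the counts. It had 1 count in replicate 1 and 0 in replicate 2, where the exact interval for 0 counts reaches 0.649 CPM. In replicate 2, Mir146 was 175-fold the limit of 3 counts (0.528 CPM), and the counting interval of its ratio to Mir146b started at 142. In replicate 1 the ratio was 478, with a counting interval from 85.4 to 18919. The counts of miRNAs with the seed GAGAACU thus came almost wholly from the Mir146 row. A read cut short within the first 17 bases would match both genes equally.

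Mir150, the miRNA of mature B and T lymphocytes that represses Myb, was the lowest of the 7 detected genes. It lies on chromosome 7 (45121757 to 45121821, plus strand) outside any other annotated gene and had 72 counts in replicate 1 and 141 in replicate 2. This is 16.9 CPM (13.2 to 21.3) and 24.8 CPM (20.9 to 29.3), or 20.9 ± 5.61 CPM, the widest relative spread of the 7. Mir223 was 38.9 ± 12.3 times as abundant as Mir150, 47.6 times in replicate 1 and 30.2 times in replicate 2.

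Each step in the order of levels was larger than the spread between the libraries. The gap between neighbours ran from 2.47 times the larger SD (Mir144 over Mir146) to 5.18 times (Mir142b row over Mir223), and the counting intervals of neighbours did not overlap in either library. Sequences can differ in how readily they are ligated and amplified, which an SD over libraries does not show, so the order is one of counts. The genes nearest to each member in level, by the distance of log2(CPM + 1) over both libraries, were Mir137 for the Mir142b row (distance 0.20), Mir15b for Mir223 (0.065), Mir494 for Mir451a (0.14), Mir222 for Mir144 (0.096), Mir673 for Mir146 (0.022), Mir412 for Mir155 (0.13) and Mir184 for Mir150 (0.28). The second nearest were Mir31, Mir210, Mir125b-1, Mir500, Mir138-2, Mir135b and Mir3105, in the same order of members. With 2 libraries this is a likeness in level only.

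Together the 8 genes held 0.291% of the counts in replicate 1 and 0.287% in replicate 2, or 0.289% ± 0.00342. White cell genes made up most of it: the Mir142b row held 0.140% ± 0.0120 and Mir223 0.0777% ± 0.00389, against 0.0528% ± 0.00970 for the erythroid pair, 0.0165% ± 0.00243 for Mir146, Mir155 and Mir146b, and 0.00209% ± 0.000561 for Mir150. The sum hid shifts between its parts, because by share of counts the Mir142b row was higher in replicate 2 and the erythroid pair in replicate 1. Of that pair only Mir451a passed the test between the replicates given below. Set beside the tissue itself, this was little. The epithelial list held 12.4% ± 1.16 with all 13 genes above the limit, the mesenchymal and smooth muscle list 19.2% ± 0.623 with 9 of 10, and the endothelial Mir126a 3.22% ± 0.198. The liver miRNA Mir122 held 0.0721% ± 0.0386 (994 and 448 CPM), and the pancreas and striated muscle lists held 0.000320% ± 0.000220 and 0.0110% ± 0.00152. The neural list held 0.213% ± 0.0155. Some of these sums rested mostly on 1 gene: Mir143 held 90.7% of the mesenchymal and smooth muscle list, and Mir137 72.3% of the neural list. Mir217 held 78.0% of the pancreas list and Mir206 55.4% of the striated muscle list. Above the limit in both libraries were 1 of 3 pancreas genes, 5 of 8 striated muscle genes and 8 of 12 neural genes. Reads with more than 1 genomic match, 26.2% of those in replicate 1 and 25.7% in replicate 2, are outside these shares.

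**Figure D3:**
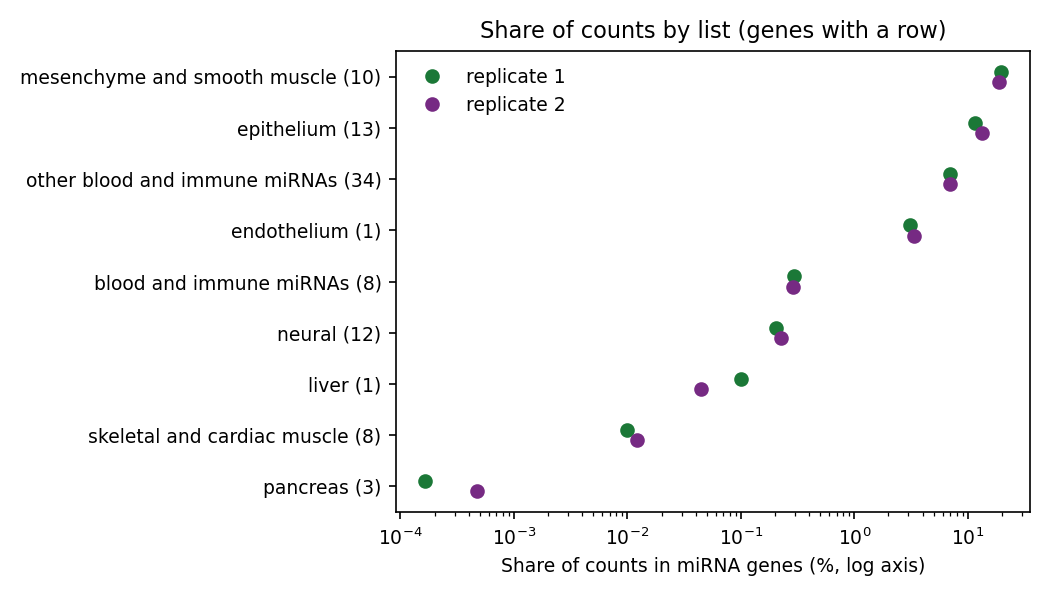
Share of miRNA gene counts held by each list in replicates 1 and 2 (%, log axis), with the number of genes that have a row in parentheses. The 8 blood and immune genes sit at 0.291% and 0.287%, well below the epithelial and mesenchymal lists and above the striated muscle and pancreas lists.

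Between the replicates, 3 of the 7 tested members differed by more than counting error: the Mir142b row and Mir150 were higher in replicate 2, and Mir451a was higher in replicate 1. The test, an exact binomial one (two-sided), covered the 365 genes with at least 20 counts summed, used TMM scaling and was adjusted over all of them by Benjamini-Hochberg. It sets 1 library against another, and nothing but counting error enters it. Of all genes tested 51.0% passed, 22.5% as higher in replicate 2 and 28.5% as higher in replicate 1, so 3 of 7 members is no more than the whole table shows. The log2 ratio of replicate 2 to replicate 1 was 0.29 at the Mir142b row (counting error 0.02, adjusted p of the exact test 1.4e-31), -0.31 at Mir451a (0.05, 3.12e-10) and 0.67 at Mir150 (0.21, 0.00297). Mir223 had a ratio of 0.02, Mir144 of -0.13, Mir146 of -0.16 and Mir155 of -0.21, and their adjusted p in the exact test ran from 0.120 to 0.730.

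These ratios were of the size seen across the table. The median over the 7 members was -0.13, against -0.03 over all 365 genes, and the median absolute ratio was 0.21 in both. The middle 50% of all genes lay between -0.27 and 0.18, and 4 of the 7 members fell inside that range. The 3 outside were those that passed, of which Mir150 also lay above the 95th percentile of all genes (0.56).

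**Figure D4:**
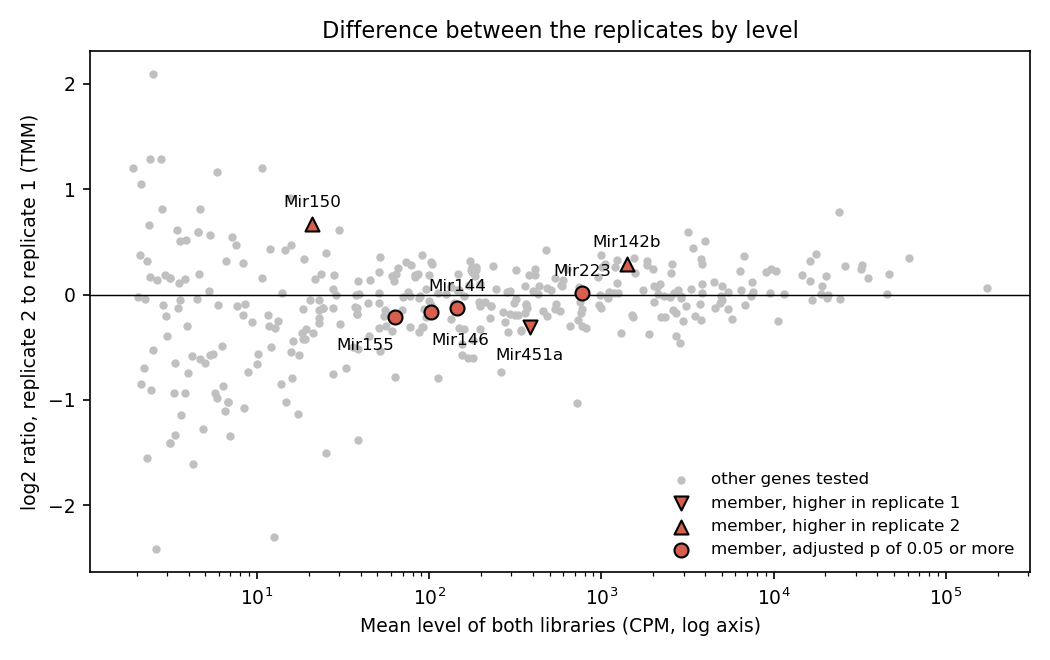
Log2 ratio of replicate 2 to replicate 1 after TMM scaling against mean level (CPM, log axis) for the 365 genes tested. Grey points are other genes and red symbols are members, with triangles for those past an adjusted p of 0.05. Mir150 (0.67) stands highest among the members and Mir451a (-0.31) lowest, and the scatter of the grey points widens towards low levels.

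The calls of 4 members depended on the scaling. With total counts in place of TMM all log2 ratios moved by -0.12, and all 7 members passed: the Mir142b row (0.18) and Mir150 (0.55) as higher in replicate 2, and Mir451a (-0.43), Mir155 (-0.33), Mir146 (-0.28), Mir144 (-0.24) and Mir223 (-0.10) as higher in replicate 1. Over all genes, 57.8% passed under that scaling, 12.9% as higher in replicate 2 and 44.9% as higher in replicate 1. Mir223 changed sign between the scalings. With DESeq2 size factors 51.5% of all genes passed, 26.8% as higher in replicate 2 and 24.7% as higher in replicate 1, and the members past the test were those found with TMM.

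**Figure D5:**
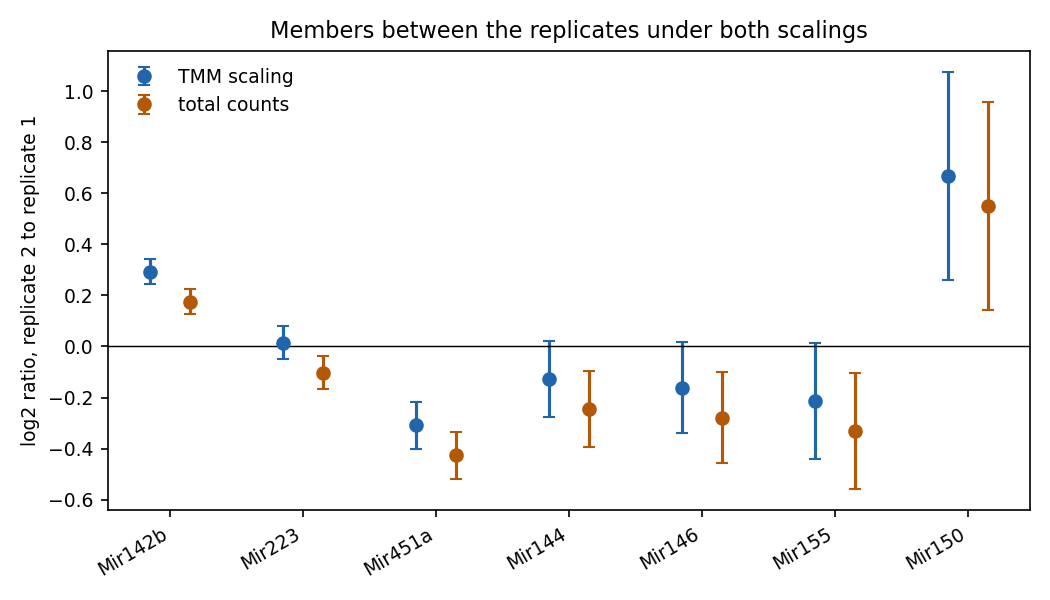
Log2 ratio of replicate 2 to replicate 1 for the 7 tested members under TMM scaling and under total counts. Bars are 95% intervals for counting error. The Mir142b row and Mir150 lie above 0 and Mir451a below 0 under both scalings, and Mir223 moves from 0.02 to -0.10.

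Ratios between members within a library do not depend on the scaling. Mir223 was 1.83 times as abundant as Mir451a in replicate 1 (interval of the ratio 1.73 to 1.94) and 2.29 times in replicate 2 (2.17 to 2.42). For the Mir142b row over Mir451a the values were 2.99 (2.84 to 3.15) and 4.54 (4.32 to 4.78). Mir223 and the Mir142b row therefore stood higher over Mir451a in replicate 2, in both cases with intervals that did not overlap. Over Mir144, Mir223 stood at 5.11 (4.70 to 5.56) in replicate 1 and 5.64 (5.21 to 6.10) in replicate 2, and these intervals overlap. The liver miRNA Mir122 was also higher in replicate 1, at 994 CPM against 448 CPM in replicate 2 (log2 ratio -1.03). Its part in the erythroid levels was not tested. With TMM, 28.5% of all genes tested passed as higher in replicate 1 and 22.5% as higher in replicate 2. In the epithelial list 12 of 13 genes passed as higher in replicate 2 and 1 as higher in replicate 1. In the mesenchymal and smooth muscle list 6 of 9 passed as higher in replicate 1 and 2 as higher in replicate 2. Mir486, a further erythroid miRNA, was at 12.4 and 7.75 CPM (log2 ratio -0.56, adjusted p of the exact test 0.116). Reads with more than 1 genomic match are outside these counts, and how many of them belong to Mir486 was not tested.

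A wider list of miRNAs that blood and immune cells use along with other tissues was far more abundant. Of 41 genes listed 34 had a row, all 34 were above the limit in both libraries, and they held 6.93% ± 0.0123 of the counts, beside which the counts of the 8 members came to 4.21% and 4.13%. The highest were Mir130a (20043 ± 614 CPM), expressed in blood progenitors and endothelium, and Mir21a (17628 ± 2335 CPM), induced in activated immune cells and in many growing tissues. Mir652 (6854 ± 737 CPM), Mir181c (3825 ± 189 CPM), Mir125a (2867 ± 803 CPM) and Mir181d (2635 ± 134 CPM) followed. Each of these 6 exceeded the Mir142b row. Between the replicates, with TMM, 19 of the 34 did not pass, 10 had the higher level in replicate 1 and 5 had it in replicate 2, and the median log2 ratio was -0.02. Over all genes tested 51.0% passed, 28.5% as higher in replicate 1 and 22.5% as higher in replicate 2. Some genes of this list, such as Mir16-1 and Mir16-2, carry the same mature miRNA at several loci, and their reads that mapped to both are outside the counts.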

How the data were processed

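The deposited values are raw counts of reads for 1973 miRNA genes in each of 2 libraries, made on mm10 with GENCODE M4 according to the readmes. A name for the aligner or the counter was not given in the sources used here. The columns, which have no header, were read from their values as unstranded counts and counts per strand. Rows that name no gene were left out: in replicate 1, 19.5% of reads did not map and 3.69% lay outside miRNA genes, and in replicate 2, 17.2% and 2.88%. CPM used the strand of the gene, except for the Mir142b row (opposite strand), over the total of the former. Symbols came from GENCODE M21 (1894 identifiers matched). The replicates were compared with an exact binomial test (scipy 1.17.1) over genes with at least 20 counts summed, TMM sizes from edgeR 4.0.16 over those genes, a prior of 0.5 counts and Benjamini-Hochberg adjustment at 0.05. edgeR's quasi-likelihood test was not used, since 1 group holds no contrast. Intervals (exact Clopper-Pearson, 95%) and the limit of 3 counts cover counting error only. Hairpins were folded with RNAfold 2.7.2. The test was also run on simulated counts that held counting error only, which cannot show how it behaves with spread between libraries. The alternatives were total counts, DESeq2 1.42.0 size factors, other count minimums and priors, unstranded counts, a 1.5-fold minimum, Mir142b left out or read on its own strand, a total without Mir143, and each replicate alone. All members were named, with the 6 highest of the wider list and the 2 genes nearest in level to each member. The members and lists were chosen with earlier results of these data known.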

Additional observations from a re-analysis of the deposited data

Results flagged for a closer look

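Reads on the opposite strand, outside the levels given for these genes, were above the limit of 3 counts in both libraries at 2 genes of the wider blood and immune list. Mir486 had 5 and 5 such reads beside 53 and 44 on its own strand, in replicates 1 and 2. Mir130a had 5 and 7 beside 83575 and 116326.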

How the results depend on the processing

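Both libraries form 1 group, so the number of libraries limits every SD, and the tests cover counting error only. No paired analysis was possible because the design has 1 group. The number of members past the test was 3 with TMM, 7 with total counts and 1 (Mir150) with a 1.5-fold minimum, and 3 under the other 5 alternatives, among them TMM over all rows, which was chosen after seeing the data. Over all genes the 1.5-fold minimum left 41 of 365, or 11.2%, and with no filter on low counts 174 of 717, or 24.3%, passed. The share of all genes past the test was 58% with a minimum of 100 counts and 50.1% with unstranded counts. It was 54.2% with TMM over all rows and 51.5% with DESeq2 size factors, beside 51% with TMM and 57.8% with total counts. By construction, a larger minimum or a shift of all ratios changes such counts. The 1.5-fold minimum was applied to ratios with TMM. In CPM, Mir150 was 1.47-fold higher in replicate 2, under that minimum. The share of counts held by the list was 0.289%, but 0.149% on the own strand only, 0.350% over a total without Mir143, the most abundant gene, and 0.278% with unstranded counts. It was 0.287% to 0.291% with 1 replicate left out. The log2 ratio of Mir223 reversed to -0.10 under total counts (adjusted p of the exact test 0.00453). The ratio of Mir451a to Mir144 ran from 2.46 to 2.79. The order of the 8 levels was the same with unstranded counts and with each replicate alone. Read on its own strand, the Mir142b row had 0 counts in both libraries and would not stand first.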
